A study of Homo sapiens with 6 samples.

Results

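The genes described here are the SR proteins and hnRNPs, 2 families of RNA-binding proteins that set which exons enter an mRNA, together with the SF3A, SF3B and U2AF proteins that recognise the 3′ end of introns, the SR-like proteins TRA2A and TRA2B, and the polypyrimidine tract proteins PTBP1 and PTBP2. They were taken by name from the table of read counts per gene: every row named SRSF with a number or starting with HNRNP, SF3A or SF3B, plus U2AF1, U2AF2, TRA2A, TRA2B, PTBP1 and PTBP2. Pseudogenes, antisense rows and numbered copies of a gene were left out. This gave 54 of 50550 rows: 12 SR genes, 2 TRA2 genes, 25 hnRNP genes, 2 noncoding genes with hnRNP names, 3 SF3A, 6 SF3B, 2 U2AF and 2 PTBP genes.

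RNA came from U2OS, an established human osteosarcoma cell line, in 6 libraries. The 3 libraries titled Lv_LINC00673 carry the genotype label LINC00673, and the 3 titled Lv_NC the label NC. The design text speaks of wild-type U2OS cells and of derivatives in which the long noncoding RNA LINC00673 was knocked down, and the labels used here do not spell out NC or name the agent. Whether a group's libraries are separate cultures, or 1 clone, is not stated either, so every p-value here reflects only how much these 6 libraries varied, and that variation may be technical. Each fold change is Lv_LINC00673 over Lv_NC.

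SR proteins bind exons through RNA recognition motifs, and their arginine- and serine-rich tails help to bring the U1 particle to the 5′ splice site and U2AF to the 3′ splice site. Many hnRNPs oppose them by covering nearby RNA, although several members of both families can raise or lower the use of an exon depending on where they bind. U2AF1 reads the AG that ends the intron, U2AF2 reads the polypyrimidine tract before it, and the SF3A and SF3B complexes then hold the U2 particle on the branch point. Many of these genes adjust their own levels by splicing a poison exon into their RNA, which sends it to nonsense-mediated decay.

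Library totals ran from 61815841 to 87227980 counts. LINC00673 (chr17:72403322-72592804 in RefSeq GRCh38.p14) was at 6.55, 6.23 and 6.38 CPM (normalized counts scaled to a common library size of 1e+06) in the Lv_LINC00673 libraries and at 9.16, 9.27 and 7.08 CPM in the Lv_NC libraries. The groups did not overlap on this scale, but the log2 fold change of -0.41 (SE 0.16, adjusted p = 0.0924) did not pass the threshold. With plain library totals as the scaling it was -0.25 (edgeR adjusted p = 0.294), and the deposited FPKM values of the groups overlapped. The groups are therefore called by their titles throughout. Of 8 mesenchymal and bone markers 7 averaged at least 1 CPM (COL1A2 did not), summing to 3243 to 3616 CPM in Lv_LINC00673 and 2841 to 3036 CPM in Lv_NC. None of 6 blood and immune markers reached 1 CPM, HBB being at 0. The endothelial markers, 2 of 4 of them at 1 CPM or more, summed to 5.32 to 6.59 CPM in Lv_LINC00673 and 4.02 to 4.27 CPM in Lv_NC, the neural markers (4 of 5) to 22.8 to 23.7 and 26.1 to 26.3 CPM, and the epithelial markers (3 of 6) to 5.29 to 6.57 and 4.37 to 6.90 CPM. The part of these marker differences in the results was not tested.

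Of the 54 genes, 49 had enough counts to be tested, and 18 differed between the groups at an adjusted p under 0.05. The test was edgeR's quasi-likelihood test with Benjamini-Hochberg adjustment over 21933 genes, and it called 26.8% of all genes tested. Among the 49 genes, 10 were higher in Lv_LINC00673 (against 14.3% of all genes) and 8 lower (against 12.5% of all genes). The higher genes were SF3B1, PTBP2, SRSF10, SRSF11, HNRNPH2, HNRNPA3, HNRNPR, HNRNPH3, HNRNPA2B1 and HNRNPU. The lower genes were HNRNPAB, HNRNPF, SF3B5, PTBP1, SRSF9, SF3B2, U2AF2 and SF3A1. The median log2 fold change was -0.06 over the 49 genes and 0.05 over all genes tested. In bulk RNA, fewer cells that express a gene and less of its RNA per cell cannot be told apart.

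Most of these differences were small. Of the 18, 6 reached a fold of 1.5 in either direction and 12 did not. In 26 of the 49 genes the CPM ranges of the groups did not overlap, against 45.1% of all genes tested. Together the 54 rows took 1.1 to 1.23% of all raw counts in the Lv_LINC00673 libraries and 1.04 to 1.13% in the Lv_NC libraries. In CPM they summed to 10999 ± 320 in Lv_LINC00673 and 11587 ± 341 in Lv_NC (SD, n = 3), so the order of the groups depends on the scaling.

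Several calls rested on how the libraries were scaled. With plain library totals in place of trimmed-mean factors, the median of all tested genes shifted by 0.17 on the log2 scale. The split of the 49 genes went from 10 higher and 8 lower to 14 higher and 2 lower. In that fit 18.5% of all genes tested were higher and 5.58% lower. Limma on log2(FPKM + 1) gave 12 higher and 2 lower, against 3105 higher and 1304 lower among all 16161 genes tested there. With an offset for the GC content and length of each gene's transcript, 20 of the 49 were called, 4 higher and 16 lower, where the same fit called 29.7% of 18514 genes (15.1% higher, 14.6% lower). Only 6 genes were called in the same direction by the main fit and the offset fit: SF3B1, SRSF11 and HNRNPH2 were higher in both, and HNRNPF, PTBP1 and SF3A1 lower in both. HNRNPU was higher in the main fit and lower with the offset. Leaving out 1 library at a time, 5 of the 18 calls held in all 6 fits (SF3B1, SRSF11, HNRNPH2, HNRNPAB and HNRNPF). The other 13 calls each ended in at least 3 of those fits. Omitting library 2 or library 3 of Lv_LINC00673 ended 13 calls each time, and omitting library 1 ended 0. Among the Lv_NC libraries, omitting library 2 ended 11 calls, library 3 ended 12, and library 1 ended that of HNRNPR alone.

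**Figure D1:**
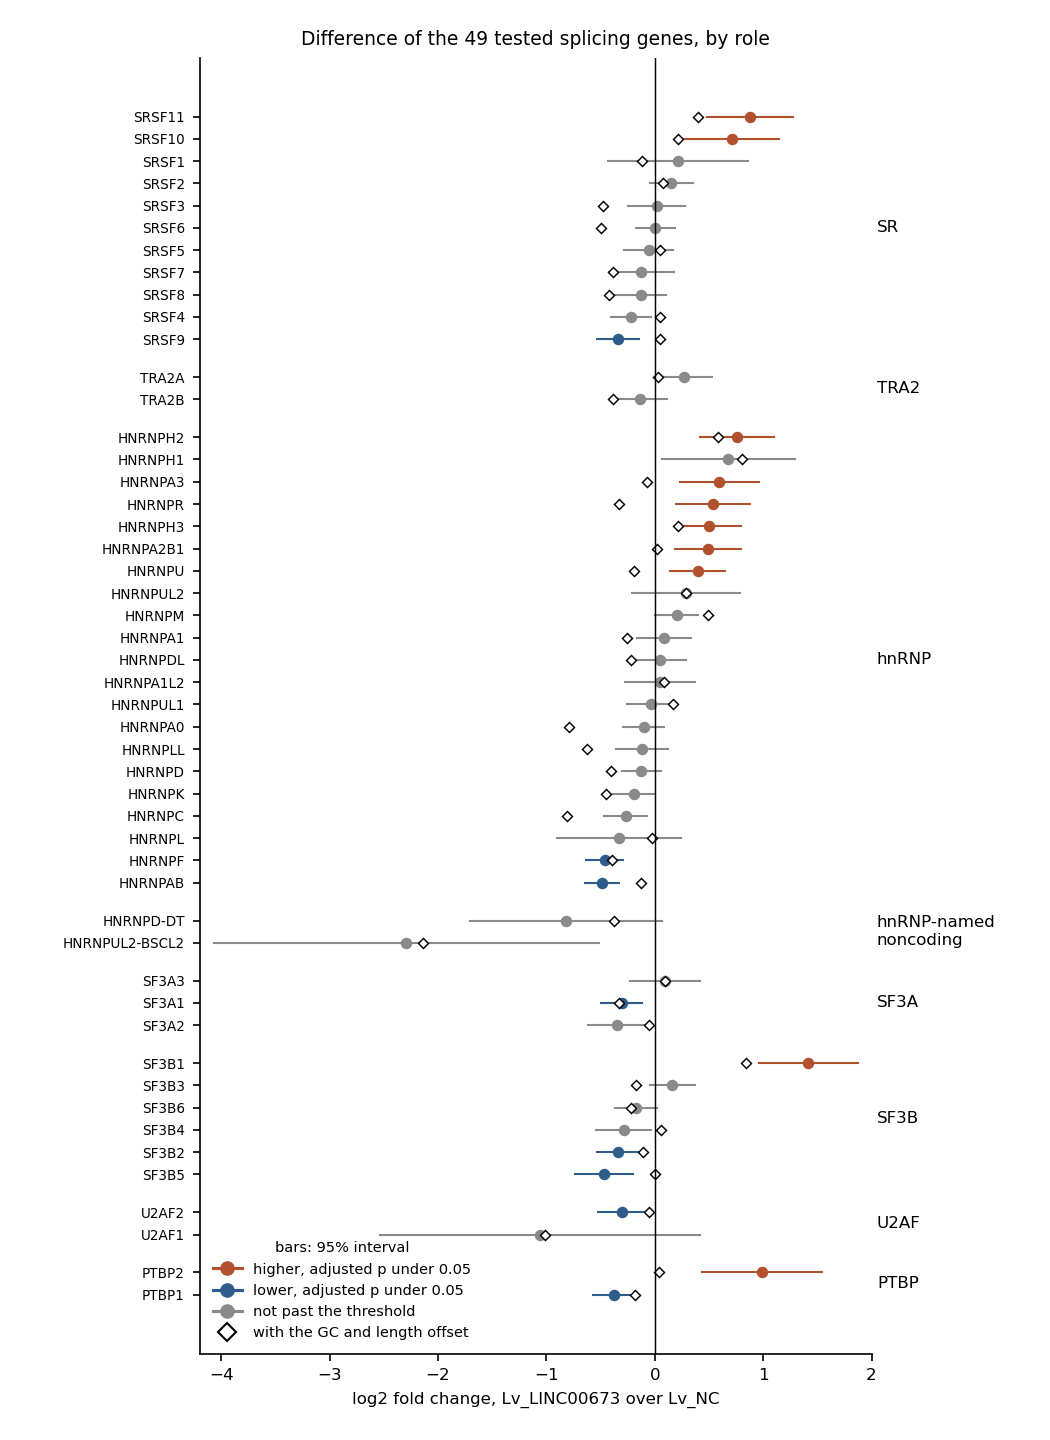
Each line is 1 of the 49 tested genes, grouped by role; the horizontal axis is the log2 fold change of Lv_LINC00673 over Lv_NC, filled circles are the main fit with 95% intervals (n = 3 libraries a group), and open diamonds the fit with the GC and length offset. SF3B1 lies farthest right among genes past the threshold, and for 17 of the 18 genes past the threshold the diamond lies nearer to 0 than the circle, with a changed sign for SRSF9, HNRNPA3, HNRNPR, HNRNPU and, at 0.0002, SF3B5.

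Levels were compared between genes on the deposited FPKM scale, which divides by transcript length, although no source used here names the length model. Each gene was ranked by its own row alone, which can understate a gene whose counts also lie in another row. HNRNPL, for example, had 53.3 ± 26.3 FPKM in the Lv_NC libraries, and its numbered copy row 141 ± 22.6 FPKM. In the Lv_NC libraries the median of the 49 tested genes was 48.7 FPKM, against 1.88 FPKM over all genes tested, and 27 of the 49 were in the top 10% of tested genes. SF3B5, a small subunit of SF3B, was the highest at 403 ± 24.7 FPKM (SD, n = 3), and HNRNPAB, an A/B-type hnRNP, came next at 328 ± 3.72 FPKM. HNRNPA1 and HNRNPK had 270.0 ± 30.6 and 216 ± 16.1 FPKM, and PTBP1 and HNRNPF 201 ± 10.2 and 199.9 ± 2.85 FPKM. In this order, 40 of the 48 neighbouring pairs had libraries that overlapped, PTBP1 and HNRNPF among them, and 8 did not. The 3 steps from SF3B5 down to HNRNPK did not overlap.

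The SR proteins ranged widely. SRSF9 led at 187 ± 9.9 FPKM, and SRSF2 and SRSF5 followed at 106 ± 4.87 and 102 ± 9.84 FPKM, which overlap. The lowest tested SR gene, SRSF11, had 4.17 ± 0.847 FPKM. SF3B1, the largest SF3B subunit and the one that clamps the branch point, had 4.77 ± 1.72 FPKM against the 403 ± 24.7 FPKM of its partner SF3B5 in the same complex. PTBP2, the form of the polypyrimidine tract protein that takes over from PTBP1 in neurons, had 0.913 ± 0.274 FPKM. Across the 49 genes 17 exceeded 100 FPKM and 8 were under 10 FPKM. FPKM and counts did not keep a fixed ratio in every gene. The length implied by the 2 values varied between libraries by a factor of 2.79 in HNRNPR, 1.72 in PTBP2 and 1.64 in U2AF1. In 38 of 48 genes every library stayed within 5% of the gene's mean over the 6 libraries.

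The 5 untested genes were at or near 0 counts. SRSF12, a relative of SRSF10, had 0 counts in all 6 libraries, which allows a level of up to 0.0370 to 0.0448 CPM depending on the library (3 counts, counting error only). HNRNPCL1, HNRNPCL2 and HNRNPCL4, relatives of HNRNPC, also had 0 counts in every library. HNRNPCL3 had 1 count in Lv_LINC00673 library 2 and 0 elsewhere.

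**Figure D2:**
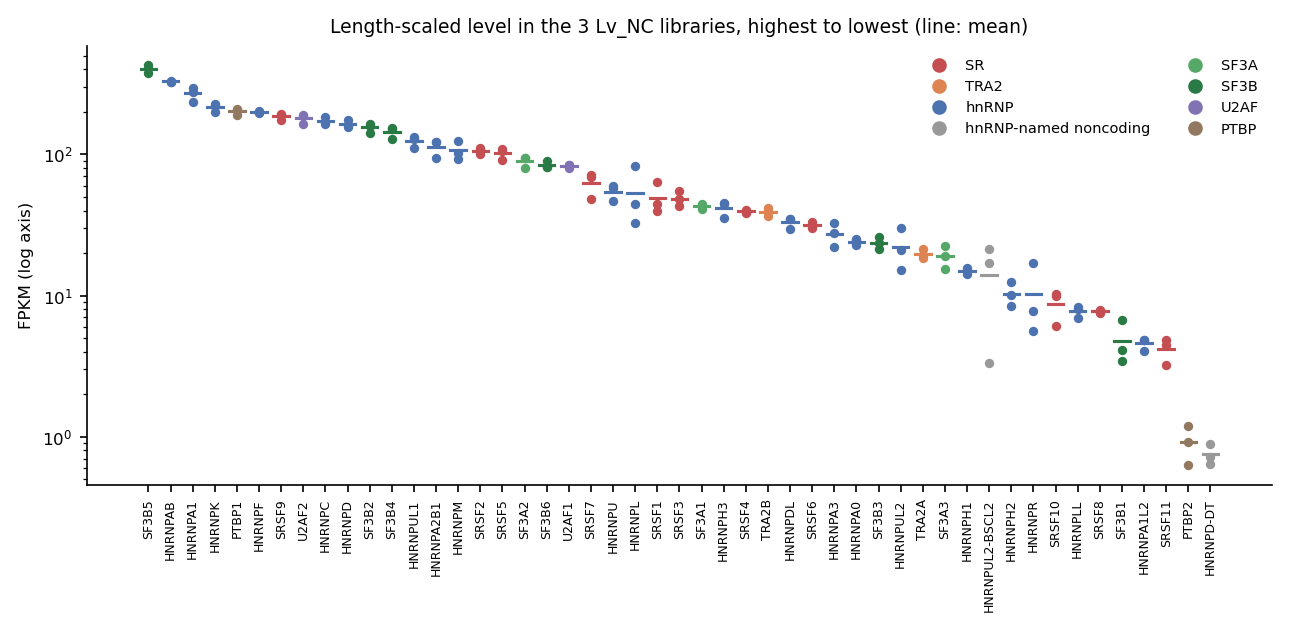
Points are the deposited FPKM values of the 3 Lv_NC libraries on a log axis, lines their means, and colours the roles of the 49 tested genes, ordered from highest to lowest. Each gene is shown by its own row alone. SF3B5 leads at 403 FPKM, SF3B1 sits near the low end at 4.77 FPKM, and HNRNPR, HNRNPL, HNRNPUL2 and the HNRNPUL2-BSCL2 row show the widest spread between libraries.

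Of the 11 SR genes tested, 2 were higher and 1 lower (27.3% called, against 26.8% of all genes tested). SRSF11, an SR protein known to bind U2AF2, measured 35.6, 47.4 and 38.7 CPM in the Lv_LINC00673 libraries and 24.1, 17.1 and 25 CPM in the Lv_NC libraries. Every Lv_LINC00673 library lay above every Lv_NC library, with library 2 of each group at the extremes. Its log2 fold change was 0.88 (SE 0.17, adjusted p = 0.00958), and 0.40 with the GC and length offset (adjusted p = 0.0174).

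SRSF10, an SR protein that turns into a repressor when it loses its phosphates, measured 58.7, 78.4 and 75.5 CPM against 51.6, 31 and 47.5 CPM. Again the groups did not overlap and Lv_NC library 2 was lowest. Its log2 fold change was 0.71 (SE 0.19, adjusted p = 0.0284). With the offset it was 0.22 (adjusted p = 0.0711), no longer past the threshold, and without Lv_LINC00673 library 2 the adjusted p was 0.0991.

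SRSF9, a small SR protein with a short serine-rich tail, went the other way, with a mean of 187 ± 10.3 CPM in Lv_LINC00673 and 237 ± 14.4 CPM in Lv_NC (SD, n = 3). The single values were 199, 182 and 181 CPM in Lv_LINC00673 and 239.5, 249.6 and 221 CPM in Lv_NC, again without overlap. The log2 fold change was -0.34 (adjusted p = 0.0216). With the offset it changed sign to 0.05 (adjusted p = 0.568), and without Lv_LINC00673 library 3 the adjusted p was 0.0854.

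The other 8 tested SR genes did not pass the threshold. SRSF1, the founding member of the family and a factor in both constitutive and regulated splicing, had the widest spread of them, with 207, 358 and 369 CPM in Lv_LINC00673 and 358, 240.2 and 204 CPM in Lv_NC. Each group held both low and high libraries, and the 95% interval of the log2 fold change ran from -0.43 to 0.86. SRSF6 averaged 153 ± 2.65 and 153 ± 6.69 CPM. Its 95% interval, from -0.17 to 0.18, is narrow. SRSF4 lay lower in every Lv_LINC00673 library, at 81.9, 84.1 and 85.1 CPM against 94.2, 96.2 and 102 CPM, but missed the threshold (log2 fold change -0.22, adjusted p = 0.0748).

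SRSF3, the smallest SR protein and a carrier of mRNA out of the nucleus, had 234 ± 25.7 CPM in Lv_LINC00673 and 231 ± 25.9 CPM in Lv_NC, a log2 fold change of 0.02. With the offset SRSF3 became -0.48 (adjusted p = 0.00173). SRSF2, SRSF5, SRSF7 and SRSF8 had log2 fold changes of 0.15, -0.06, -0.12 and -0.13 in the main fit. With library totals SRSF2 passed as higher, at 0.32 (adjusted p = 0.0246). SRSF6, SRSF7 and SRSF8 passed the threshold as lower with the offset, at -0.49, -0.39 and -0.42 (adjusted p = 0.0343, 0.00282 and 0.0411).

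TRA2A and TRA2B, which bind GAA-rich exons and favour their inclusion, did not pass the threshold. TRA2A had 52.1 ± 5.35 CPM against 43.1 ± 3.5 CPM (log2 fold change 0.27, adjusted p = 0.109; 0.44 with library totals, adjusted p = 0.0342). TRA2B had 148 ± 21.7 against 163 ± 6.86 CPM (log2 fold change -0.14, adjusted p = 0.4), and -0.39 with the offset (adjusted p = 0.0219). Its sign turned to 0.03 with library totals.

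Of the 21 hnRNP genes tested, 6 were higher and 2 lower (38.1% called, against 26.8% of all genes tested). The hnRNP H proteins bind runs of G and can either silence or enhance an exon. HNRNPH2 measured 41.8, 49.2 and 40.9 CPM in Lv_LINC00673 and 30.9, 21.7 and 25.3 CPM in Lv_NC, with no overlap. Its log2 fold change was 0.76 (SE 0.15, adjusted p = 0.00939) and remained 0.58 with the offset (adjusted p = 0.00326). HNRNPH3, a shorter relative, measured 151 ± 20.8 against 107 ± 13 CPM, a log2 fold change of 0.50 (adjusted p = 0.0225) that fell short of the threshold with the offset (0.21, adjusted p = 0.0649). Omitting library 2 of Lv_LINC00673 gave HNRNPH3 an adjusted p of 0.0836.

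The A/B-type hnRNPs package nascent transcripts and silence exons. HNRNPA3 measured 196, 273 and 215 CPM against 174, 123 and 156 CPM. The lowest Lv_LINC00673 library still exceeded the highest Lv_NC library, and the log2 fold change was 0.60 (SE 0.16, adjusted p = 0.0261). HNRNPA2B1, which also reads m6A-marked RNA, measured 385, 501 and 409 CPM against 337, 259 and 327 CPM, a log2 fold change of 0.49 (SE 0.13, adjusted p = 0.0283). With the offset the log2 fold changes were -0.07 for HNRNPA3 and 0.02 for HNRNPA2B1 (adjusted p = 0.484 and 0.864). Without Lv_LINC00673 library 2 their adjusted p-values were 0.0928 and 0.104.

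HNRNPA1, the best known silencer of exons, did not pass the threshold. It measured 990.1, 1228 and 1059 CPM in Lv_LINC00673 and 1114, 912 and 1069.9 CPM in Lv_NC, and the groups overlapped. The log2 fold change was 0.08 (95% interval -0.17 to 0.33), and -0.26 with the offset (adjusted p = 0.00513). HNRNPA0 was at 215 ± 7.44 against 231 ± 13.8 CPM (log2 fold change -0.10; -0.79 with the offset, adjusted p = 0.0249).

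HNRNPAB fell with the smallest spread of the 18 genes that differed, its means being 444 ± 8.59 CPM in Lv_LINC00673 and 622 ± 9.14 CPM in Lv_NC. The single values were 612, 629 and 626 CPM and 447, 434 and 450.2 CPM. The log2 fold change was -0.49 (SE 0.07, adjusted p = 0.0045) and, with the offset, -0.12 (adjusted p = 0.107). HNRNPF, which binds the same G runs as the H proteins, fell from 567 ± 16.5 to 412 ± 19.3 CPM. Its log2 fold change was -0.46 (SE 0.08, adjusted p = 0.00586), and -0.40 with the offset (adjusted p = 0.00416). HNRNPF passed the threshold as lower, and its relative HNRNPH2 as higher, in both the main fit and the offset fit.

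HNRNPU, a nuclear scaffold protein that binds RNA and chromatin, measured 536 ± 55 against 407 ± 45 CPM (log2 fold change 0.40, adjusted p = 0.0308). The offset turned it to -0.19 (adjusted p = 0.037), and without Lv_LINC00673 library 2 the adjusted p was 0.119. HNRNPC, which binds runs of U and keeps U2AF2 off them, lay lower in every Lv_LINC00673 library, at 393, 439.5 and 465 CPM against 504, 513 and 546 CPM, and just missed the threshold (log2 fold change -0.27, adjusted p = 0.0516); with the offset it was -0.81 (adjusted p = 0.00532).

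HNRNPM was not past the threshold in the main fit but was called higher with the offset. It measured 359, 339 and 341 CPM against 329.7, 276 and 299 CPM, a log2 fold change of 0.20 in the main fit (adjusted p = 0.128) and 0.49 with the offset (adjusted p = 0.00464). Library totals and limma on log2(FPKM + 1) also called HNRNPM higher, at 0.37 and 0.41 (adjusted p = 0.019 and 0.0379). HNRNPK and HNRNPD, which bind C-rich and AU-rich RNA, had log2 fold changes of -0.19 and -0.12 and did not pass the threshold (adjusted p = 0.121 and 0.289). HNRNPDL, HNRNPLL and HNRNPUL1 were within -0.12 to 0.05 in the main fit. With the offset HNRNPK, HNRNPDL and HNRNPLL passed as lower, at -0.45, -0.21 and -0.63 (adjusted p = 0.00318, 0.019 and 0.00974).

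The largest difference past the threshold belonged to SF3B1, and it had the opposite direction to the other SF3B calls. SF3B1 measured 72.4, 95.2 and 77.4 CPM in Lv_LINC00673 and 40.4, 23.6 and 27.8 CPM in Lv_NC. The lowest Lv_LINC00673 library exceeded the highest Lv_NC library, and library 2 held the highest value of one group and the lowest of the other. The means were 81.7 ± 12 and 30.6 ± 8.73 CPM, a 2.67-fold difference (log2 fold change 1.42, SE 0.20, 95% interval 0.96 to 1.87, adjusted p = 0.00442). With the offset the log2 fold change was 0.84 (adjusted p = 0.00137). It passed the threshold in all 22 alternative analyses, with log2 fold changes from 0.84 to 1.66.

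SF3B5 and SF3B2 fell. SF3B5 measured 258, 194 and 211 CPM against 283, 329 and 306 CPM (log2 fold change -0.47, adjusted p = 0.0212). SF3B2, which contacts RNA upstream of the branch point, measured 466, 417 and 410.1 CPM against 506, 562 and 565 CPM (log2 fold change -0.34, adjusted p = 0.0234). The groups did not overlap for either gene, but neither call held with the offset, which gave 0.00 for SF3B5 and -0.11 for SF3B2 (adjusted p = 0.999 and 0.132), or without Lv_LINC00673 library 3 (adjusted p = 0.0814 and 0.0986).

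SF3B3, SF3B4 and SF3B6 did not pass the threshold, with log2 fold changes of 0.16, -0.29 and -0.17 (adjusted p = 0.225, 0.0895 and 0.17). SF3B3 passed as lower with the offset (-0.17, adjusted p = 0.0315) and as higher with library totals (0.33, adjusted p = 0.0376). SF3B4 binds RNA upstream of the branch point together with SF3B2. In the SF3A complex, which joins SF3B to the U2 particle, SF3A1 fell from 241 ± 13.8 to 195 ± 9.56 CPM (log2 fold change -0.30, adjusted p = 0.0295; -0.33 with the offset, adjusted p = 0.0076; adjusted p = 0.101 without Lv_LINC00673 library 3). SF3A2 measured 125 ± 14.6 against 159 ± 17 CPM (log2 fold change -0.35, adjusted p = 0.0553) and SF3A3 61.5 ± 7.06 against 57.5 ± 9.81 CPM (log2 fold change 0.10, adjusted p = 0.657).

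PTBP1 and PTBP2 moved in opposite directions. PTBP1, which silences exons flanked by pyrimidine tracts, fell from 706 ± 42.6 to 546 ± 35.2 CPM. Its single values were 569, 505 and 563 CPM in Lv_LINC00673 and 657, 734 and 728 CPM in Lv_NC, and the log2 fold change was -0.37 (SE 0.09, adjusted p = 0.0152; -0.18 with the offset, adjusted p = 0.0338). PTBP2 rose from 4.1 ± 0.944 to 8.14 ± 2.14 CPM.

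PTBP2 measured 6.4, 10.5 and 7.48 CPM in Lv_LINC00673 and 5.14, 3.31 and 3.84 CPM in Lv_NC, without overlap (log2 fold change 0.99, SE 0.24, adjusted p = 0.0196). It has the longest and most AT-rich transcript of the tested genes, 12014 bases at 34.7% GC, and with the offset its log2 fold change was 0.04 (adjusted p = 0.865). On the length-scaled FPKM values PTBP1 stayed above PTBP2 in both groups, at 173 ± 8.91 against 2.27 ± 0.577 FPKM in Lv_LINC00673. Both calls ended without Lv_NC library 3 (adjusted p = 0.0604 for PTBP1 and 0.0757 for PTBP2).

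**Figure D3:**
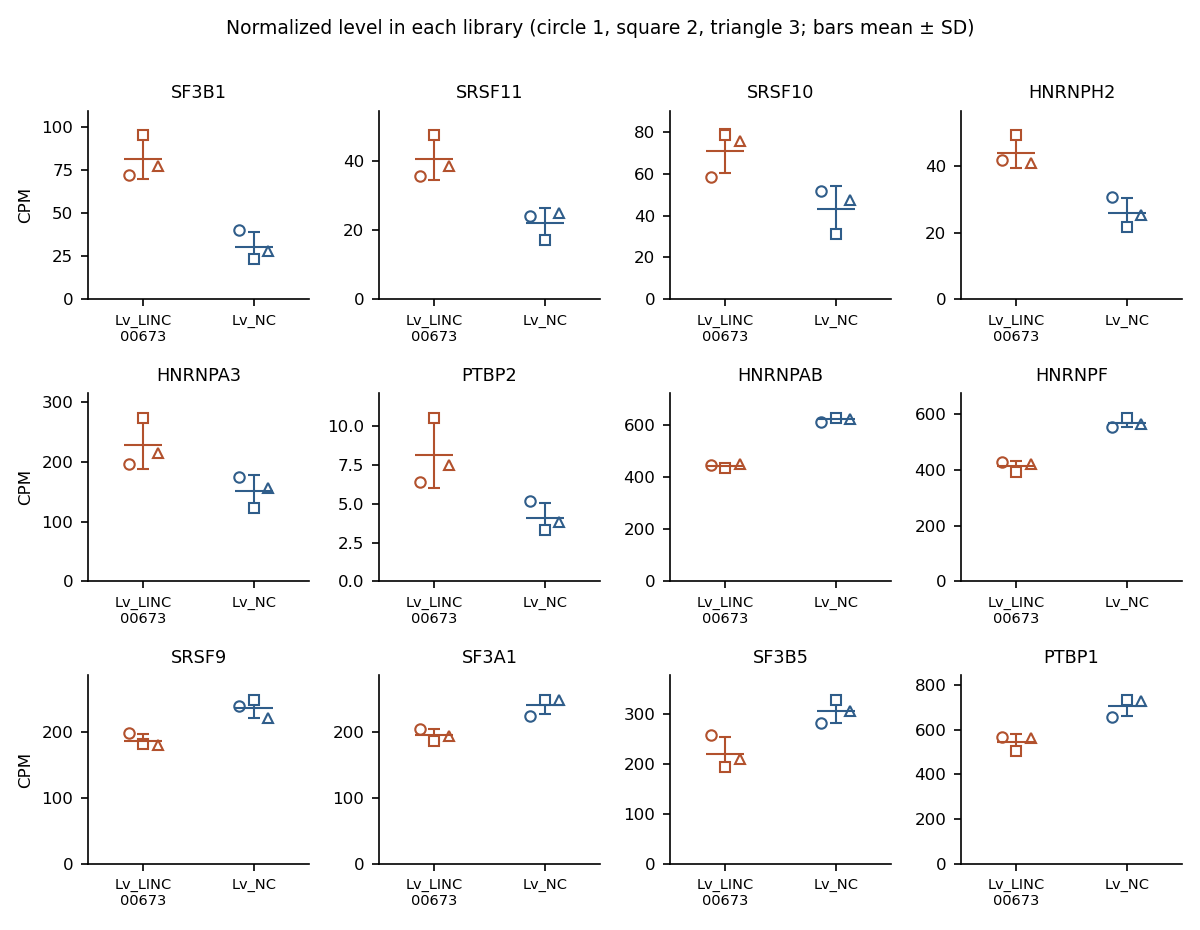
CPM in each library (circle library 1, square library 2, triangle library 3) with the mean and SD (n = 3), for 6 genes that rose and 6 that fell; all axes start at 0. In SF3B1 the Lv_LINC00673 libraries sit between 72.4 and 95.2 CPM and the Lv_NC libraries between 23.6 and 40.4 CPM; the square is at the top of Lv_LINC00673 and at the bottom of Lv_NC in each of the 6 genes that rose.

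The same libraries stood at the ends of the range in gene after gene. In all 10 higher genes Lv_LINC00673 library 2 had the highest CPM of the 6 libraries, and in 9 of the 10 Lv_NC library 2 had the lowest. In the 8 lower genes Lv_NC library 2 was the highest in 7, and Lv_LINC00673 library 2 the lowest in 6. These genes were picked by a test on the same libraries, and the share over all called genes was not counted. Over 12349 genes the deviations of the libraries numbered 2 from their group means had a correlation of -0.36, so the pattern is not shown to be particular to these genes.

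The higher and lower genes also differed in base composition and length. The 10 higher genes had longest coding transcripts of 34.7 to 42.1% GC (median 38.3%), and the 8 lower genes of 47.99 to 61.1% GC (median 54.7%), so that these ranges do not touch. The median transcript length was 4736 bases for the higher and 2888.5 bases for the lower genes. Across the 49 genes, which are not independent replicates, the Spearman correlation of the log2 fold change was -0.65 with GC content and 0.47 with length. Across 11984 genes above a mean of 4 CPM it was -0.51 and 0.46. All these points share the same 6 libraries. HNRNPH1, HNRNPM and HNRNPUL2 were higher in Lv_LINC00673 at over 50% GC, with log2 fold changes of 0.68, 0.20 and 0.29 that did not pass the threshold.

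**Figure D4:**
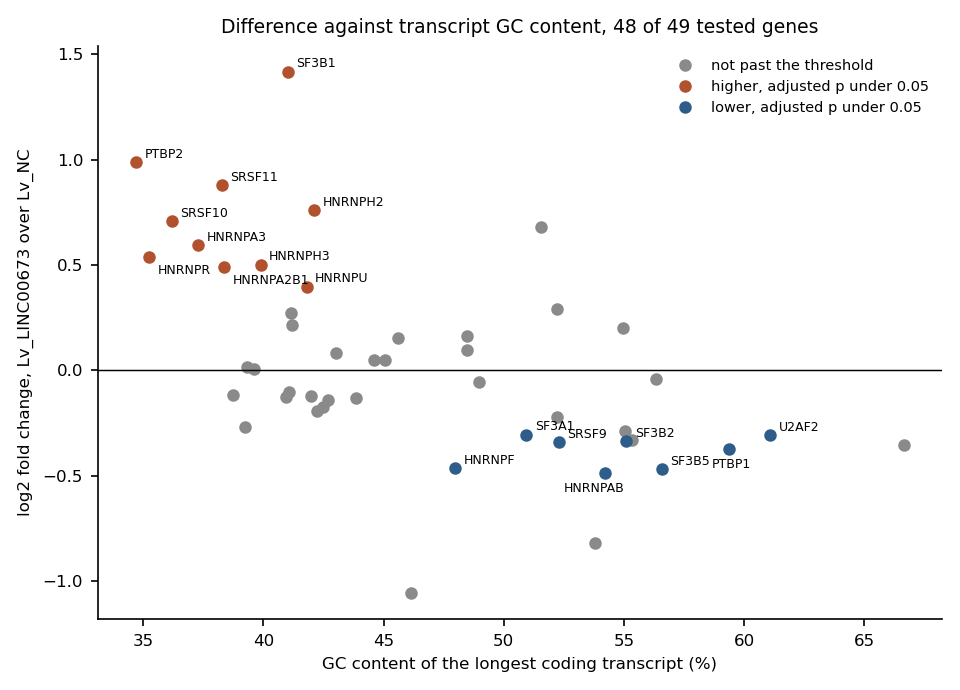
Each point is 1 tested gene, with the GC content (%) of its longest coding transcript (for the noncoding gene, its longest transcript) on the horizontal axis and its log2 fold change on the vertical axis; the HNRNPUL2-BSCL2 row, at -2.29, is left off. The named genes higher in Lv_LINC00673 all lie at or under 42.1% GC and the named lower genes at or over 47.99% GC.

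For some of these genes the reads are spread over a pair of rows, and the 6 libraries were not split alike. U2AF1 and U2AF1L5, a second copy of the gene in the genome build, have coding sequences of 720 bases that are 100% identical in the GENCODE 29 transcripts. The first 60 coding bases of both are shown because no read from such a stretch can tell the copies apart:
U2AF1: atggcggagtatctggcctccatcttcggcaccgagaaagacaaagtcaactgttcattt
U2AF1L5: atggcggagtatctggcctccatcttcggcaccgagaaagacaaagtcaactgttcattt
The U2AF1 row had 872, 3803 and 3952 counts in the Lv_LINC00673 libraries and 6476, 7341 and 6480 in the Lv_NC libraries. The U2AF1L5 row had 8472, 4010 and 4240 and 7052, 7928 and 7240. In Lv_LINC00673 library 1 the U2AF1 row held 9.33% of the pair's counts, while in the other 5 libraries it held 47.2 to 48.7%.

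On its own the U2AF1 row gave a log2 fold change of -1.05 with an SE of 0.59 (adjusted p = 0.246). Summed over both rows the level was 122 ± 5.62 CPM in Lv_LINC00673 and 184 ± 7.80 CPM in Lv_NC (SD, n = 3), without overlap. That is a log2 fold change of -0.60 (adjusted p = 0.00437), so the summed U2AF1 and U2AF1L5 counts were lower, an analysis chosen after the data were seen. U2AF2, which has a single row, fell from 496 ± 39 to 401 ± 36.4 CPM (log2 fold change -0.31, adjusted p = 0.047). With the offset the value of U2AF2 was -0.06 (adjusted p = 0.427), and without Lv_LINC00673 library 3 its adjusted p was 0.153.

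HNRNPH1 shares its counts with a numbered copy row. The HNRNPH1 row measured 61.3, 81.5 and 34.1 CPM in Lv_LINC00673 and 34.1, 39.9 and 36.4 CPM in Lv_NC, and held 21.0 to 46.2% of the pair's counts depending on the library. Alone it missed the threshold (log2 fold change 0.68, adjusted p = 0.0942). Summed with its copy, HNRNPH1 stood at 185 ± 33.3 CPM in Lv_LINC00673 and 107 ± 18.01 CPM in Lv_NC, a log2 fold change of 0.79 (adjusted p = 0.0101). HNRNPH1 and HNRNPH2 are 87.6% identical over 1347 coding bases, a far wider gap than between the U2AF1 copies, and 60 bases of each are shown with the differing bases in capitals:
HNRNPH1: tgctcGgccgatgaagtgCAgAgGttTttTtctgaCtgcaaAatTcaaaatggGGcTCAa
HNRNPH2: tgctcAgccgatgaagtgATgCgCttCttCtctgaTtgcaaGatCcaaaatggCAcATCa

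HNRNPR, a relative of SYNCRIP, has a copy row too, and there the sum removed the call. The HNRNPR row measured 72.3, 84.6 and 70.04 against 41.2, 60.6 and 54.5 CPM (log2 fold change 0.54, adjusted p = 0.0299). With its copy it measured 163 ± 15.8 against 142 ± 14.3 CPM (log2 fold change 0.20, adjusted p = 0.204). HNRNPL, which binds CA repeats, went the other way: alone its log2 fold change was -0.33 (adjusted p = 0.364), and with its copy -0.30 (379 ± 18.4 against 466 ± 26.3 CPM, adjusted p = 0.0285). With the offset the HNRNPL row was at -0.02 and its copy row at 0.03 (adjusted p = 0.966 and 0.874). The offset was not fitted to the summed rows of any pair.

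The HNRNPUL2-BSCL2 row is a noncoding readthrough that joins HNRNPUL2 to its neighbour BSCL2 on chromosome 11. It had 783, 1118 and 669 counts in Lv_LINC00673 and 7167, 1201 and 5467 counts in Lv_NC. Normalized, it measured 10.7, 16.7 and 9.81 CPM in Lv_LINC00673 and 92.6, 14.8 and 75 CPM in Lv_NC. On the CPM scale Lv_NC libraries 1 and 3 were high and Lv_NC library 2 was inside the range of the other group, and the log2 fold change of -2.29 (SE 0.71, adjusted p = 0.0666) missed the threshold. The HNRNPUL2 row was low in those same 2 libraries, at 85.6, 175 and 119 CPM in Lv_NC against 158, 148 and 159 CPM in Lv_LINC00673. The pair summed to 167 ± 2.25 CPM in Lv_LINC00673 and 188 ± 8.46 CPM in Lv_NC (log2 fold change -0.16, adjusted p = 0.151), the opposite sign to the 0.29 of HNRNPUL2 alone. HNRNPD-DT, a noncoding RNA read divergently from HNRNPD, stayed under 1 CPM in every library (log2 fold change -0.82, adjusted p = 0.152).

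HNRNPA1L2, a copy of HNRNPA1 on chromosome 13, differs from it at 15 of 960 coding bases, 98.4% identity. The 60 bases with 3 of those differences are shown, in capitals, as the kind of stretch in which a read can tell the 2 genes apart:
HNRNPA1: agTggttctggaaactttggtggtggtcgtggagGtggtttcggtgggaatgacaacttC
HNRNPA1L2: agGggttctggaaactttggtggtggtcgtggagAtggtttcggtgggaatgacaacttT
HNRNPA1L2 was at 9.24 ± 0.667 CPM in Lv_LINC00673 and 8.94 ± 0.541 CPM in Lv_NC. No source used here says how reads that match both genes were counted, so the values of these pairs are uncertain. With its pseudogene rows added, the log2 fold change of HNRNPA1 was 0.08 (adjusted p = 0.619).

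**Figure D5:**
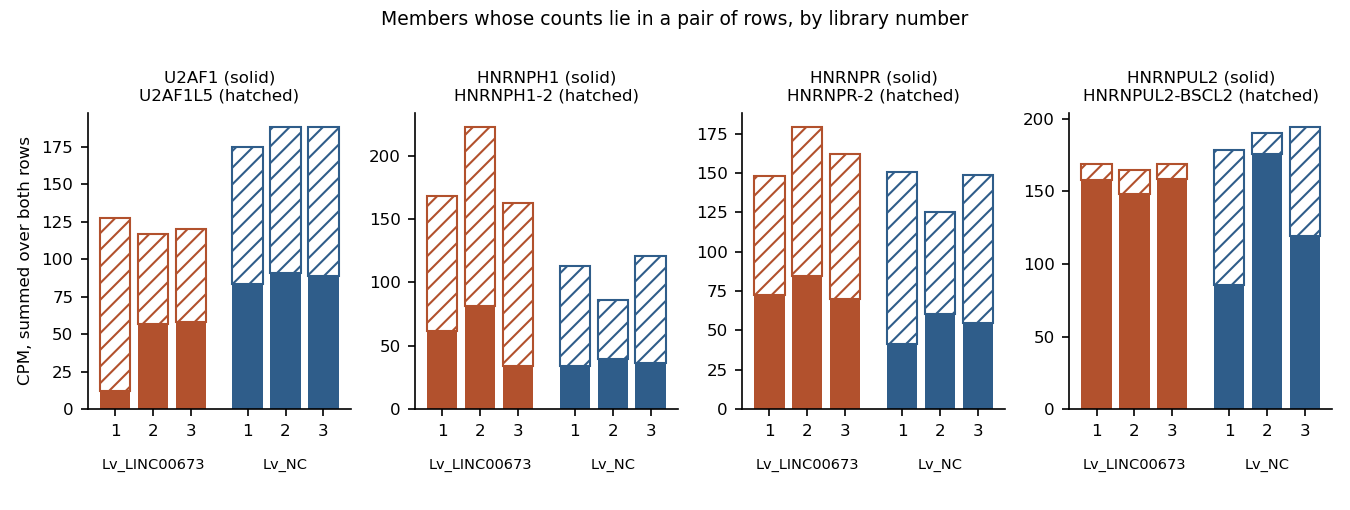
Bars are CPM in each library (1 to 3 in each group), solid for the gene's own row and hatched for the second row stacked on it. In the U2AF1 pair the solid part shrinks in Lv_LINC00673 library 1 while the whole bar, at 128 CPM, stays near the 117 and 120.2 CPM of the other Lv_LINC00673 libraries and under the Lv_NC bars at 175 to 188 CPM.

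The promoters of these genes were read from RefSeq (GRCh38.p14) as the 250 bases before the first start the table lists for a gene, and 49 of the 54 genes had one. For some genes, SRSF11, PTBP2 and HNRNPF among them, this stretch lies inside the gene's RefSeq span. The letters CCGGAAG, the core of a site for ETS factors, stood on either strand in 12 of 49 promoters (24.5%), against 8.82% of 27305 promoters of the same length. GGGCGG, the GC box bound by SP1, stood in 32 (65.3%, against 42.3%), and CCAAT, the site of NF-Y, in 20 (40.8%, against 33.0%). Of the 5 further motifs searched, the E-box CACGTG stood in 7 (14.3%, against 6.49%), the TATA box TATAAA in 5 (10.2%, against 11.1%) and the heat shock element TTCNNGAA in 1 (2.04%, against 6.72%). The CREB site TGACGTCA and the NRF1 site stood in 0 of 49, against 1.77 and 1.13% of all promoters. Against the promoters of tested genes alone the gaps were narrower: GGGCGG stood in 31 of the 45 tested genes of these families (68.9%) and in 62.2% of 13688 tested genes, CCAAT in 18 (40.0%, against 33.9%) and CCGGAAG in 12 (26.7%, against 13.8%). A match is a description of letters and shows no binding.

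By direction of change, CCGGAAG stood in 0 of the 10 promoters of higher genes and in 4 of the 8 of lower genes. Over all tested genes with a promoter it stood in 14.1% of the higher and 19.4% of the lower genes. GGGCGG stood in 5 of the 10 higher and 6 of the 8 lower genes, against 61.5 and 71.4% over all tested genes with a promoter. CCAAT stood in 6 and 4, against 34.6 and 38.4%. At least 1 of these 3 motifs stood in 7 of the 10 and 7 of the 8, and in 23 of the 27 promoters of tested members not past the threshold. The share over all tested genes was not counted for this. The promoters of 4 genes are printed to show promoters without and with CCGGAAG, with the letters of these 3 motifs (ETS, GC box and CCAAT) in capitals on either strand, each written 5′ to 3′ on the strand of its gene. Those of SF3B1 (chr2:197435029-197435278, minus strand) and SRSF11 (chr1:70221130-70221379, plus strand), both higher in Lv_LINC00673, are among the 3 of 10 that hold none of the 3 motifs. The SRSF11 stretch lies inside its RefSeq gene (chr1:70205696-70253052), and the SF3B1 stretch overlaps its gene, which ends at chr2:197435093. The lack of motifs in these genes therefore concerns only the printed promoters. Those of SF3B2 (chr11:66052114-66052363, plus strand) and U2AF2 (chr19:55654785-55655034, plus strand), both lower, hold 2 and 1 copies of CCGGAAG, and U2AF2 also 6 of GGGCGG, some of them overlapping:
SF3B1: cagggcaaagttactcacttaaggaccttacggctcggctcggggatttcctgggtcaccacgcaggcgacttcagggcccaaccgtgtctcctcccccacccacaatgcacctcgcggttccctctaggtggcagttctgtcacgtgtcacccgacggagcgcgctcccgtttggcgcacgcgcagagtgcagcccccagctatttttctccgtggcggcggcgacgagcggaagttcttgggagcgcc
SRSF11: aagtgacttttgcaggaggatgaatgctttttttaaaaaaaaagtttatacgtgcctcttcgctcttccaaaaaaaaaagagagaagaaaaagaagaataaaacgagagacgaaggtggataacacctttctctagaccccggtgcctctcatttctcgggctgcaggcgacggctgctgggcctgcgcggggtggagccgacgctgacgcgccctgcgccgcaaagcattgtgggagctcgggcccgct
SF3B2: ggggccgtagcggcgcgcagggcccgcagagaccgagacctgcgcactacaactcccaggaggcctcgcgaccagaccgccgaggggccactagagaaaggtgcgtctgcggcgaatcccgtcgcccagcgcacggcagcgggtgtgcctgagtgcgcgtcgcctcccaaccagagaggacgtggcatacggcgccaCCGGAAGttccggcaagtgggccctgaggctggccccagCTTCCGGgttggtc
U2AF2: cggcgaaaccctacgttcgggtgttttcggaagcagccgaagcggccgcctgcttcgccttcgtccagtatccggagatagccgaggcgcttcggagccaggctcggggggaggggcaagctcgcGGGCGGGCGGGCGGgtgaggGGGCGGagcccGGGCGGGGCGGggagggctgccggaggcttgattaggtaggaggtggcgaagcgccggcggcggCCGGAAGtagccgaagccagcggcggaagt

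The rest of the splicing machinery was taken from 10 lists with 171 distinct genes, all of them tested. In these, 54 genes were higher and 34 lower in Lv_LINC00673, against 14.3 and 12.5% of all genes tested. The GC and length offset gave 58 higher and 36 lower. Their median log2 fold change was -0.03, against 0.05 over all genes tested.

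The SR-related proteins, which carry arginine- and serine-rich tracts outside the classical SR family, had 12 of 21 genes higher and 1 lower, with a median log2 fold change of 0.69, and 13 higher and 1 lower with the offset (median 0.35). BCLAF1, an RS-domain protein tied to transcription and splicing, rose from 11.2 ± 3.06 to 36.5 ± 7.63 CPM (log2 fold change 1.70, adjusted p = 0.00412; 0.94 with the offset). NKTR, a cyclophilin with an RS tail, rose from 11 ± 3.07 to 34.1 ± 9.56 CPM (log2 fold change 1.64, adjusted p = 0.00519; 1.02 with the offset). The lower one was RNPS1, a part of the exon junction machinery, named after its value was seen (-0.74, adjusted p = 0.0143; -0.43 with the offset, adjusted p = 0.125).

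The kinases and importers that load SR proteins with phosphate and carry them into the nucleus had 5 of 11 genes higher and 1 lower. PRPF4B, a kinase of the tri-snRNP, rose from 11.4 ± 4.28 to 24.9 ± 4.56 CPM (log2 fold change 1.13, adjusted p = 0.0182; 0.65 with the offset), and the SR kinase DYRK1A from 4.32 ± 1.73 to 9.22 ± 3.33 CPM (1.09, adjusted p = 0.0395; 0.30 with the offset, adjusted p = 0.355). The call of DYRK1A ended without any 1 library except Lv_NC library 1 (highest adjusted p 0.143). That of PRPF4B ended without Lv_LINC00673 library 2, Lv_LINC00673 library 3 or Lv_NC library 3 (highest adjusted p 0.0682).

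The U1-linked genes split evenly, 4 higher and 4 lower of 9. LUC7L3, which helps U1 to hold the 5′ splice site, rose, with a log2 fold change of 1.48 (adjusted p = 0.00541; 0.76 with the offset). With the offset the 4 lower calls were lost and the 4 higher ones stayed in number. Of the Sm and LSm proteins, small rings around the snRNAs, 0 of 14 were higher and 6 lower. SNRPG fell from 58.7 ± 16.9 to 29.4 ± 8.1 CPM (log2 fold change -0.997, adjusted p = 0.0194) and LSM6 from 19.6 ± 2.32 to 13.4 ± 0.573 CPM (-0.55, adjusted p = 0.0199). Leaving out 1 library ended the call of SNRPG in 4 of 6 fits and that of LSM6 in 3 of 6 (highest adjusted p 0.0794 and 0.0795). For SNRPG these were Lv_LINC00673 libraries 1 and 2 and Lv_NC libraries 2 and 3, and for LSM6 Lv_LINC00673 libraries 2 and 3 and Lv_NC library 3. With library totals 1 of the 14 was lower and 0 higher, against 5.58 and 18.5% of all genes tested. With the GC and length offset 7 of the 14 were lower and 0 higher, against 14.6 and 15.1% of all genes tested there.

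Among 13 further genes of the U2 particle, the partners of SF3A and SF3B, 3 were higher and 1 lower (30.8% called, against 26.8% of all genes tested). U2SURP and DDX46, an RNA helicase that remodels the U2 particle, rose, with log2 fold changes of 1.49 and 1.30 (adjusted p = 0.00751 and 0.0045), close to the 1.42 of SF3B1. With the offset they were 0.73 and 0.66, against 0.84 for SF3B1. The tri-snRNP had 2 of 16 genes higher and 6 lower. The 2 higher were its largest proteins, PRPF8, the scaffold of the catalytic core (168 ± 7.15 against 91.3 ± 10.5 CPM, log2 fold change 0.88, adjusted p = 0.00297), and the helicase SNRNP200 (409 ± 62.4 against 247 ± 31.3 CPM, 0.73, adjusted p = 0.00764).

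The PRP19 complex and factors of the catalytic steps had 9 of 24 genes higher and 5 lower, with AQR at 1.43 and CWC22 at 1.26 (adjusted p = 0.00534 and 0.00786; 0.69 and 0.86 with the offset). The minor spliceosome, which removes the rare U12-type introns, had 2 of 10 higher and 1 lower (30% called, against 26.8% of all genes tested). The 2 higher were RNPC3 at 1.33 and SNRNP48 at 1.09 (adjusted p = 0.0124 and 0.0119), and at 0.84 and 0.54 with the offset. SNRNP48 missed the threshold with limma on log2(FPKM + 1) (0.43, adjusted p = 0.0725), and both did without a filter on low values there (highest adjusted p 0.173 for SNRNP48). Of 39 other splicing regulators 13 were higher and 5 lower. MBNL2, a muscleblind protein of developmental splicing, had the largest log2 fold change among them, 1.83 (5.81 ± 1.48 against 1.64 ± 0.629 CPM, adjusted p = 0.00772; 1.24 with the offset and 0.80 with limma on log2(FPKM + 1)), followed by RBM25 at 1.62 (adjusted p = 0.00493; 0.94 with the offset). The exon junction complex and nonsense-mediated decay genes, the route by which poison-exon transcripts are removed, had 5 of 15 higher and 4 lower. UPF2 and UPF3B, which link the junction complex to UPF1, rose, with log2 fold changes of 1.40 and 1.36 (adjusted p = 0.00827 and 0.00884; 0.85 and 1.14 with the offset).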

How the data were processed

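RNA from 6 U2OS libraries was measured by sequencing; per the labels' protocols, TRIzol extracted the total RNA and a TruSeq kit made the libraries. The deposited files from the authors hold whole-number read counts per gene, not normalized, and FPKM values per gene. The genome build was hg38, per the submitters' processing notes; no source used here names the aligner, counter, annotation, strand setting or FPKM length model. All columns were matched to libraries by name (0 left unmatched).

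Counts were filtered (filterByExpr), scaled by trimmed-mean factors and put through the quasi-likelihood test of edgeR 4.0.16 (robust, two-sided, no covariate; R 4.3.3). Benjamini-Hochberg adjustment ran over 21933 genes, with a threshold of 0.05. Fold changes and CPM use these factors; the SE is the size of the log2 fold change over the root of the F statistic. The deposited FPKM values served for levels and for limma 3.58.1 alternatives. Other alternatives were DESeq2 1.42.0, limma-voom, other scaling factors and filters, a replicate block, leaving out each library, adding related rows, and an offset per library fitted on GC content and length (splines with 4 degrees of freedom) of each gene's longest coding transcript in GENCODE 29, which 18514 genes had (84.4%). The fits were tested on simulated data.

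Genes were named by rule: the targeted RNA, in each role with more than 3 tested genes the 6 past the threshold with the largest change and the one of highest FPKM, all genes of smaller roles, and up to 2 genes of each list past the threshold at a mean of 1 CPM or more; 1 gene so chosen is not reported here. The rule lets members short of the threshold be named as such, and which of these to describe was chosen after their values were seen, as were HNRNPF, HNRNPU, RNPS1 and PTBP3. The members, lists and rule were chosen with earlier results of these data known. All 54 genes matched a RefSeq GRCh38.p14 entry, and sequences are credited to RefSeq and GENCODE. Intervals and floors cover counting error only where they rest on counts of single libraries.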

Additional observations from a re-analysis of the deposited data

Results flagged for a closer look

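A pair of rows left out of the family by the choice of genes differed between the groups. The copy row of HNRNPH1 measured 107, 141 and 129 CPM in Lv_LINC00673 and 79.0, 46.5 and 84.3 CPM in Lv_NC, without overlap (log2 fold change 0.84, edgeR adjusted p = 0.0209). The pseudogene HNRNPA1P33 had 36, 43 and 41 counts in Lv_LINC00673 and 22, 15 and 13 counts in Lv_NC, a log2 fold change of 1.41 (edgeR adjusted p = 0.0378), while HNRNPA1 itself was at 0.08. With DESeq2 HNRNPA1P33 missed the threshold (adjusted p = 0.0799) and the HNRNPH1 copy row passed it. With a replicate block in edgeR neither row passed (adjusted p = 0.115 for HNRNPA1P33 and 0.0653 for the HNRNPH1 copy row). Groups of 3 libraries were not searched for outlying samples.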

How the results depend on the processing

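Each group has 3 libraries, and at totals of 61815841 counts or more only the genes near 0 counts were too shallow to test. The 18 calls became 5 with limma on log2(FPKM + 1) without a filter, and the count over all genes went from 5883 to 2578 and over the other splicing genes from 88 to 39; more genes were tested there. Leaving out 1 library gave 5 to 21 calls among these genes, 2716 to 6490 over all genes and 50 to 97 over the other splicing genes. With a replicate block the counts were 2, 1208 and 30, and with block and GC and length offset together 12, 3570 and 63. The labels do not say whether same-numbered libraries belong together. Same-numbered libraries deviated from their group means with correlations of -0.42, -0.36 and 0.04 over 12349 genes, and not every library correlated best with its own number. Such correlations within groups of 3 cannot settle whether the samples are paired. In the other settings the counts stayed within 1.5 times of the main ones: 14 to 22 among these genes.

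With the offset 15 of the 49 tested genes changed sign: the log2 fold change was 0.0465 for SRSF9, 0.0502 for SRSF4, -0.1146 for SRSF1, -0.4801 for SRSF3, -0.2583 for HNRNPA1, -0.0720 for HNRNPA3, -0.3304 for HNRNPR, -0.1871 for HNRNPU and 0.0002 for SF3B5, and 0.0510 for SRSF5, -0.4915 for SRSF6, -0.2147 for HNRNPDL, 0.1685 for HNRNPUL1, -0.1742 for SF3B3 and 0.0569 for SF3B4, genes not followed through the other settings. With block and offset it was 0.0469 for SRSF9, 0.0499 for SRSF4, -0.1088 for SRSF1, -0.4787 for SRSF3, -0.2589 for HNRNPA1, -0.0757 for HNRNPA3, -0.2734 for HNRNPR, -0.1859 for HNRNPU and 0.0439 for HNRNPL. TRA2B was 0.0301 with library totals, and with FPKM pseudocounts of 1 and 0.1 TRA2B was 0.0195 and 0.0197 and HNRNPL 0.0180 and 0.0201 (0.0195 and 0.0180 without a filter). SRSF3 was -0.0077 with RLE factors and -0.0183 with DESeq2, and HNRNPUL2 with its readthrough added -0.1644. Leaving out 1 library gave -0.0262 to 0.2194 for SF3A3, -0.0702 to 0.1010 for SRSF3, -0.0265 to 0.1355 for HNRNPA1 (negative without library 2 of either group) and -0.5560 to 0.0201 for HNRNPL (positive without Lv_NC library 3). The cause was not tested. Over the 56 genes followed through all alternatives, 993 values kept direction and side of the threshold, 170 lost the threshold, 31 gained it and 36 changed sign.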

Other observations

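A pair of near relatives outside the name rule was also measured. PTBP3, the third polypyrimidine tract protein, stood at 38.5 ± 7.18 CPM in Lv_LINC00673 and 21.3 ± 4.97 CPM in Lv_NC (SD, n = 3), a log2 fold change of 0.86 (edgeR adjusted p = 0.0166), and at 0.07 with the GC and length offset (adjusted p = 0.585). U2AF1L4, a shorter U2AF1 relative, stood at 5.56 ± 1.21 against 7.24 ± 1.81 CPM and did not pass the threshold (adjusted p = 0.254). The median coefficient of variation of the 49 tested genes was 10.3% in Lv_LINC00673 and 8.59% in Lv_NC, against 11.2 and 10.1% over 12458 genes above 4 CPM.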
